A study of Mus musculus with 6 samples.

Results

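The genes described here are 10 ligands and receptors of bone morphogenetic protein (BMP) signaling, namely the ligands Bmp2, Bmp3, Bmp4, Bmp5, Bmp6 and Bmp7, the type I receptors Bmpr1a, Bmpr1b and Acvrl1, and the type II receptor Bmpr2. They were chosen by name, and each matched 1 of the 49548 genes in the deposited table. All 10 were among the 26402 genes tested, and 9 of them had a mean of at least 10 normalized counts over the 6 libraries. The exception was Bmpr1b.

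BMPs are secreted ligands of the TGFβ superfamily that bind complexes of type I and type II receptor kinases. The activated type I receptor phosphorylates Smad1, Smad5 or Smad9, which enter the nucleus with Smad4 and induce targets such as the Id genes, while secreted antagonists hold ligands away from the receptors. In the colon, BMP ligands are made largely by the mesenchyme near the surface and favor differentiation of the epithelium, and antagonists made around the crypt base protect the stem cells there.

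The study sorted cancer-associated fibroblasts (CAFs) from colonic adenomas of C57/BL6 mice that carry Col6a1-cre and Rosa26-mTmG, and the tumors were induced with the carcinogen azoxymethane (AOM) and the irritant dextran sodium sulfate (DSS). In this reporter, Cre replaces membrane Tomato with GFP, so that GFP+ cells (Col6a1+ CAFs) are those in which the Col6a1-driven Cre was active at some time, and Tomato+ cells (Col6a1- CAFs) are all the others that passed the gate. Both groups carry the same alleles and had the same tumor induction, both were negative for CD45, EpCAM, CD31 and Ter119 at the sort, and there was no group without tumors among the 6 libraries. Each group had 3 libraries, each from pooled tumors of several mice, and the RNA was read at its 3′ ends with QuantSeq on an Ion Proton. The paper counts a total of 3 samples, each a pool of tumors, so libraries of both groups may come from the same pools. Cells labeled by this Cre include fibroblasts rich in Pdgfra as well as cells around vessels, and the Col6a1- group pools all other fibroblast types.

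Values are normalized counts, that is, 3′ read counts divided by the authors' size factors, and they summed to between 3039152 and 3425249 per library. Genes with a count numbered 14530 in Col6a1+ replicate 1 and 18770 to 20511 in the other five libraries. Log2 fold changes are Col6a1+ minus Col6a1- CAFs on the log2(normalized count + 1) scale, which understates the change of genes with few counts. They were tested with limma, and a gene is called at a Benjamini-Hochberg adjusted p under 0.05 over all 26402 genes. Counts of 3′ ends are not divided by transcript length, and levels are compared here between libraries and not between genes. Col6a1 itself, the gene whose regulatory sequence drives the Cre, had 861, 1287 and 1941 normalized counts in Col6a1+ replicates 1, 2 and 3 against 182, 321 and 102 in Col6a1- CAFs (log2 fold change 2.82, limma adjusted p = 0.00613). Blocking on replicate number gave Col6a1 an adjusted p of 0.0983 over all genes and 0.00557 over those averaging at least 10 counts.

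Of the 10 genes, Bmp3, Bmp5 and Bmpr2 were called higher in Col6a1+ CAFs and 0 were called lower, and 0 were lower at an unadjusted p under 0.05 in limma. Of all genes tested, 703 (2.66%) were called higher and 517 (1.96%) lower. Among the 13515 genes that averaged at least 10 normalized counts, 696 were called higher and 496 lower in the same fit. The log2 fold change was positive for 9 of the 10 genes, with a median of 1.30, beside a median of -0.27 over all genes tested and -0.15 over the 13515 genes that averaged at least 10 normalized counts. In 6 of the 10 genes (Bmp2, Bmp3, Bmp4, Bmp5, Bmp6 and Bmpr2) every Col6a1+ library was above every Col6a1- library, which held for 7.91% of all genes tested and for 14.2% of those with a mean of at least 10. At an unadjusted p below 0.05 together with a log2 fold change over 1, Bmp3, Bmp4, Bmp5, Bmp6, Acvrl1 and Bmpr2 were higher, as were 6.09% of all genes. In bulk libraries, fewer cells of a type and less RNA per cell cannot be told apart, so each value below is a level in the sorted population.

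**Figure D1:**
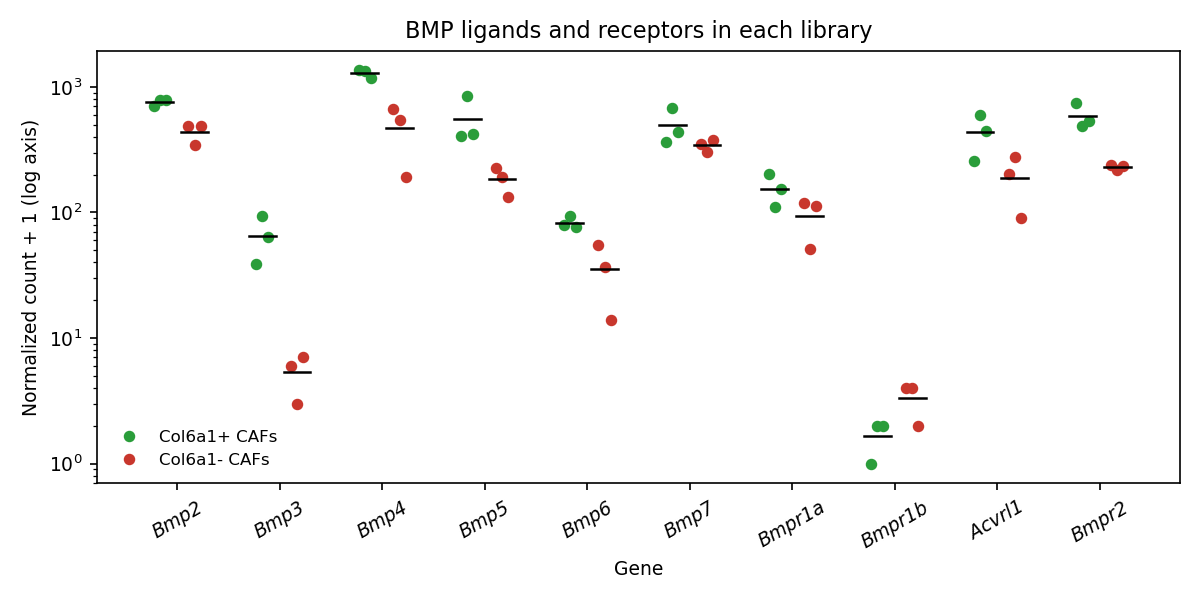
Normalized counts plus 1 (log axis) of the 10 genes in each library, with Col6a1+ CAFs in green, Col6a1- CAFs in red, replicates 1 to 3 from left to right in each group and the mean as a bar. On the authors' scaling, the green and red points do not overlap for Bmp2, Bmp3, Bmp4, Bmp5, Bmp6 and Bmpr2, and Bmpr1b stays at or below 3 normalized counts in all 6 libraries.

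The ligand with the largest log2 fold change among the 10 genes was Bmp3, an atypical BMP known to oppose the signaling of other BMPs (chr5:98854415-98884396, plus strand, mm10). It had 38, 92 and 63 normalized counts in Col6a1+ replicates 1, 2 and 3 and 5, 2 and 6 in Col6a1- CAFs. The groups did not overlap, and the lowest Col6a1+ library was several times above the highest Col6a1- library. The means were 64.3 ± 27.0 and 4.33 ± 2.08 (SD, n = 3 each), a ratio of 14.9, and the difference of the mean log2 values was 3.62 (95% interval 1.96 to 5.27, standard error 0.75, limma adjusted p = 0.0225).

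Bmp5, one of the BMP5/6/7 group of ligands (chr9:75775364-75900310, plus strand), had 407, 851 and 418 normalized counts in Col6a1+ CAFs and 225, 190 and 132 in Col6a1- CAFs. The groups did not overlap, and Col6a1+ replicate 2 stood well above the other two Col6a1+ libraries. The means were 559 ± 253 and 182 ± 47.0 (SD, n = 3 each), for a log2 fold change of 1.56 (95% interval 0.73 to 2.38, standard error 0.37, limma adjusted p = 0.0425). With 0.1 in place of 1 added before the log, the adjusted p of Bmp5 was 0.0609.

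The close homologs Bmp2 and Bmp4 lay higher in every Col6a1+ library on the authors' scaling, but neither passed the test. Bmp4 (chr14:46383520-46390669, minus strand) had 1352, 1338 and 1166 normalized counts in Col6a1+ CAFs and 671, 545 and 192 in Col6a1- CAFs. The groups did not overlap, the Col6a1+ libraries lay close together, and Col6a1- replicate 3 was far below the other two. The means were 1285 ± 104 and 469 ± 248 (SD, n = 3 each), and the log2 fold change of 1.63 (standard error 0.43, 95% interval 0.69 to 2.58) did not pass (limma adjusted p = 0.0591). Bmp4 passed with limma-voom (adjusted p = 0.0258), and the alternatives gave it values from 0.0171 to 0.420. Whether the counting used the strand is not given in the sources used here, and the antisense gene Gm15222, which overlaps Bmp4, had 53, 6 and 9 normalized counts in Col6a1+ CAFs and 23, 10 and 3 in Col6a1- CAFs, so a small share of the reads may belong to either gene.

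Bmp2 (chr2:133552159-133562885, plus strand) had 708, 792 and 788 normalized counts in Col6a1+ CAFs and 484, 341 and 484 in Col6a1- CAFs. The groups did not overlap, and both were tight. The log2 fold change of 0.82 (standard error 0.28, 95% interval 0.21 to 1.43) did not pass (limma adjusted p = 0.143).

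The remaining ligands, Bmp6 and Bmp7, are close relatives of Bmp5. Bmp6 (chr13:38345716-38499728, plus strand) had 78, 93 and 75 normalized counts in Col6a1+ CAFs and 54, 36 and 13 in Col6a1- CAFs. The groups did not overlap, but the Col6a1- libraries were wide apart, and the log2 fold change of 1.44 (standard error 0.57, 95% interval 0.18 to 2.69) did not pass (limma adjusted p = 0.226). Bmp7 (chr2:172868012-172940321, minus strand) had 366, 677 and 435 normalized counts in Col6a1+ CAFs and 353, 303 and 377 in Col6a1- CAFs. Here Col6a1+ replicate 1 lay within the Col6a1- libraries, at a log2 fold change of 0.47 (95% interval -0.22 to 1.17, standard error 0.31, limma adjusted p = 0.519).

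Summed over the 6 ligands, Col6a1+ replicates 1, 2 and 3 had 2949, 3843 and 2945 normalized counts, and the Col6a1- replicates had 1792, 1417 and 1204. The sums did not overlap between the groups, which follows from the single ligands, since 5 of the 6 did not overlap. The make-up of that sum also differed, since Bmp7 was 12.4 to 17.6% of it in Col6a1+ CAFs and 19.7 to 31.3% in Col6a1- CAFs, with no overlap. Bmp3 made up 1.3 to 2.4% against 0.1 to 0.5%, and Bmp5 13.8 to 22.1% against 11.0 to 13.4%, again with no overlap. The shares of Bmp2 (20.6 to 26.8% and 24.1 to 40.2%), Bmp4 (34.8 to 45.8% and 15.9 to 38.5%) and Bmp6 (2.4 to 2.6% and 1.1 to 3.0%) overlapped. These shares compare libraries and were not tested. No rate of such overlap over other genes was computed, and the share of each ligand depends on the others. The Col6a1- shares of Bmp3 rest on only 5, 2 and 6 normalized counts.

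Among the receptors, Bmpr2, the type II receptor kinase that most BMPs share (chr1:59763400-59879014, plus strand), had 749, 490 and 532 normalized counts in Col6a1+ CAFs and 239, 217 and 233 in Col6a1- CAFs. The Col6a1- libraries were nearly level and all lay below the Col6a1+ libraries, of which replicate 1 was the highest. The means were 590.3 ± 139 and 229.7 ± 11.4 (SD, n = 3 each), for a log2 fold change of 1.33 (95% interval 0.69 to 1.98, standard error 0.29, limma adjusted p = 0.0283).

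None of the 3 type I receptors passed in limma, and 1 of them (Acvrl1) had an unadjusted p under 0.05. Acvrl1 (ALK1), best known as the receptor for Bmp9 and Bmp10 in endothelium (chr15:101128522-101145336, plus strand), had 257, 598 and 446 normalized counts in Col6a1+ CAFs and 200, 273 and 89 in Col6a1- CAFs. The groups overlapped at Col6a1+ replicate 1 and Col6a1- replicate 2, at a log2 fold change of 1.27 (95% interval 0.24 to 2.29, standard error 0.46, limma adjusted p = 0.183). Bmpr1a (ALK3), a widely expressed receptor for Bmp2 and Bmp4 (chr14:34410734-34503341, minus strand), had 200, 110 and 152 normalized counts in Col6a1+ CAFs and 119, 50 and 111 in Col6a1- CAFs. Its groups overlapped as well, at a log2 fold change of 0.77 (95% interval -0.20 to 1.75, standard error 0.44, limma adjusted p = 0.434). Bmpr1b (ALK6, chr3:141837136-142169425, minus strand) had 0, 1 and 1 normalized counts in Col6a1+ CAFs and 3, 3 and 1 in Col6a1- CAFs. It was at or below 3 counts in every library, where a count of 0 cannot be told from a low level, and no fold is given.

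**Figure D2:**
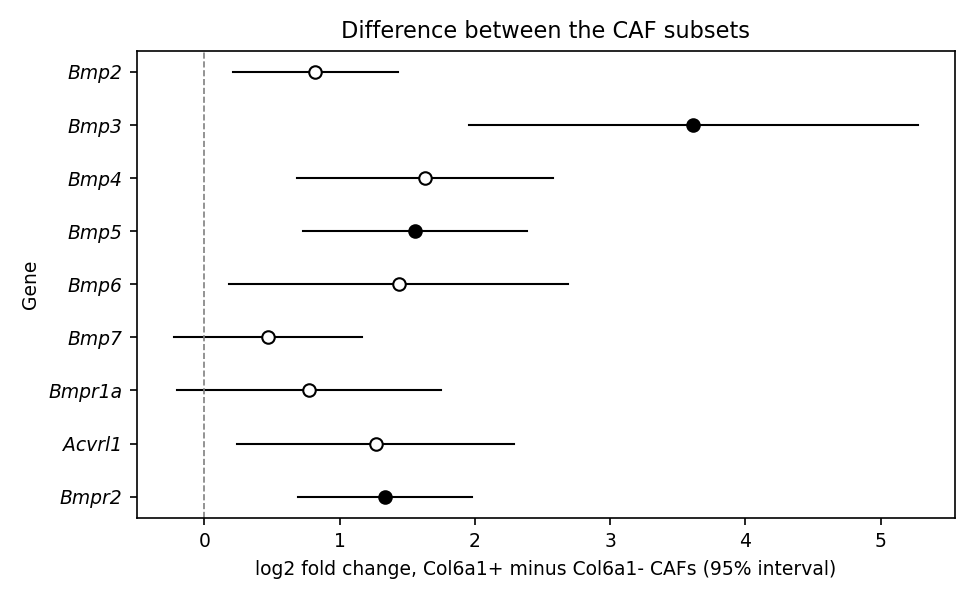
Log2 fold change of each gene, Col6a1+ minus Col6a1- CAFs on the authors' scaling, with its 95% interval from limma as a line and filled circles for an adjusted p under 0.05. Filled circles stand at 3.62 for Bmp3, 1.56 for Bmp5 and 1.33 for Bmpr2, and the intervals of Bmp7 and Bmpr1a include 0. Bmpr1b is left out, since it had at most 3 counts in each library.

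The 3 calls depended on the fit. With the replicate number as a block over all genes, the adjusted p was 0.108 for Bmp3, 0.119 for Bmp5 and 0.0855 for Bmpr2. That fit called 0 genes of the whole table in either direction, so the loss was not particular to these 3 genes. When only genes averaging at least 10 counts were fitted, Bmp3, Bmp5 and Bmpr2 passed without the block (adjusted p = 0.0151, 0.0328 and 0.0184; 6.03% of these genes were called higher). With both the block and that filter, a combination chosen after seeing the data, Bmp3, Bmp4, Bmp5 and Bmpr2 passed (adjusted p = 0.0220, 0.0171, 0.0168 and 0.0135), beside 7.26% of the genes.

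Leaving out any 1 of the 6 libraries ended all 3 calls over all genes tested, with adjusted p between 0.0582 and 0.301. Calls were few over the whole table as well, with 0 to 98 genes higher and 0 to 166 lower in these fits. The log2 fold changes then stayed within 3.25 to 3.94 for Bmp3, 1.21 to 1.74 for Bmp5 and 1.15 to 1.46 for Bmpr2. With 1 library left out and that filter, a combination chosen after seeing the data, Bmp3 passed except without Col6a1+ replicate 2 (adjusted p = 0.0722) or replicate 3 (0.0671), Bmpr2 passed without Col6a1+ replicate 1 (0.0211) or replicate 2 (0.0368), and Bmp5 passed without Col6a1+ replicate 1 (0.0166). Single libraries were not high or low for every gene. Among the 9 genes above that filter, Col6a1+ replicate 1 was the lowest of its group for 5 and the highest for 3. Some libraries leaned to 1 side. Col6a1+ replicate 2 was the highest of its group for 6 genes and replicate 3 for 0. Col6a1- replicate 1 was the highest of its group for 6 and the lowest for 0.

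The upstream bases of Bmp4 and Bmp5 are shown because these ligands had log2 fold changes of like size while their flanking sequences differ in base composition. RefSeq start-site windows on GRCm38.p6 matched 6 of the 10 genes (Bmp4, Bmp5, Bmp6, Bmpr1a, Bmpr1b and Bmpr2), and Bmp2, Bmp3, Bmp7 and Acvrl1 had no entry. Each line gives the 250 bases before the annotated start, 5′ to 3′ on the strand of the gene, in lower case throughout since none of the motifs searched was found in them.
Bmp4 (chr14:46390670-46390919, minus strand): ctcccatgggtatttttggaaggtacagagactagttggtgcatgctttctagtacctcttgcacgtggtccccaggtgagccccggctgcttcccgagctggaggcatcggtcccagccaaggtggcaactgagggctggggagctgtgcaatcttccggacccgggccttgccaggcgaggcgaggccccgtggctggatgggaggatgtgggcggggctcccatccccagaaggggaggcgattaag
Bmp5 (chr9:75775115-75775364, plus strand): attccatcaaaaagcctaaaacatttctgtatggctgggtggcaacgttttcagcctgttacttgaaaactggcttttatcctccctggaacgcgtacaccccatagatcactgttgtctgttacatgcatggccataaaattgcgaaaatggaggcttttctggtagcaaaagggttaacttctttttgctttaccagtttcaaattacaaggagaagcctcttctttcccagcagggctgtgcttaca
The GC content of these bases was 63.2% for Bmp4 and 42.8% for Bmp5, on either side of the median of 52.4% over 32851 such windows. The motifs searched on both strands were the forkhead letters GTAAACA, the BMP-responsive Smad letters GGCGCC, the TATA letters TATAAA and the CArG box, which 3.17%, 9.59%, 12.37% and 1.47% of all windows hold. Among the 6 genes with windows, GGCGCC was found in those of Bmpr1a and Bmpr2, which lie inside the gene spans given above, and TATAAA in 1 of the 3 windows of Bmpr1b. A match or its absence describes the letters of these windows and says nothing of binding.

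The genes whose profile over the 6 libraries was nearest to that of each called gene were taken by Euclidean distance between centered log2 values, among genes with a mean of at least 10. For Bmp3 they were Nhsl2 (distance 0.74), Myom1 (0.77) and Gm14328 (1.02). For Bmp5 they were Rgs2 (0.39), Fgfr1 (0.40) and the gap junction gene Gja1 (0.43). Their high level in Col6a1+ replicate 2 follows from this choice by profile, since Bmp5 was high there. For Bmpr2 they were Isca1 (0.18), Agap1 (0.21) and Elovl6 (0.28).

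The other genes of the pathway were taken from 6 lists by role, 44 genes of which 38 were tested. Of these, Eng, Id3, Id4, Bmp1 and Nbl1 were called higher in Col6a1+ CAFs and 0 lower in limma (5 lower at an unadjusted p under 0.05), with a median log2 fold change of 0.41. Over all genes tested, 2.66% were called higher and 1.96% lower, and 2483 of the 26402 were lower at an unadjusted p under 0.05 in limma. All 5 calls were lost with the replicate block over all genes (adjusted p between 0.0612 and 0.189), a fit that called 0 genes of the whole table. All 5 held with the block over genes with a mean of at least 10 (0.00386 to 0.0421). With any 1 library left out, 0 of the 5 were called over all genes tested.

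Of the 8 other BMP and GDF ligands, 4 were tested and 0 were called in limma, with 1 (Bmp8a) at an unadjusted p under 0.05. Bmp8a had 0 normalized counts in each Col6a1+ library and 4, 5 and 4 in Col6a1- CAFs (limma adjusted p = 0.0812), at least 1.44-fold lower in mean when a count of 0 is set to 3 per library. With limma-voom Bmp8a was called lower (adjusted p = 0.0261), at counts near that floor. Of the 9 other receptors and co-receptors, Eng was called. Eng (endoglin), a co-receptor that works with Acvrl1, had 331, 266 and 156 normalized counts in Col6a1+ CAFs and 32, 92 and 45 in Col6a1- CAFs, without overlap (log2 fold change 2.21, standard error 0.48, limma adjusted p = 0.0265). The co-receptor Rgma had 45, 71 and 71 against 17, 13 and 8 (log2 fold change 2.24, adjusted p = 0.0609), also without overlap. Rgma passed in limma with the mean filter (adjusted p = 0.0357) but not with the block added to it (0.0514). The pseudoreceptor Bambi, which dampens signaling, had 0, 36 and 13 against 115, 39 and 54, a log2 fold change of -2.98 that did not pass (adjusted p = 0.224).

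None of the 6 Smads was called in limma, 1 (Smad6) had an unadjusted p under 0.05, and 3 had positive and 3 negative log2 fold changes. The signal transducer Smad5 had 271, 402 and 342 normalized counts in Col6a1+ CAFs and 258, 162 and 259 in Col6a1- CAFs. Smad1 had 93, 112 and 81 against 126, 99 and 220. The inhibitory Smad6, itself a BMP target, had 375, 93 and 257 against 99, 62 and 42, where Col6a1+ replicate 2 lay below the highest Col6a1- library (log2 fold change 1.69, limma adjusted p = 0.122). Smad6 passed in limma with the block and the mean filter (adjusted p = 0.0406) but not with that filter alone (0.0959).

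Among the 4 Id genes, which encode inhibitors of basic helix-loop-helix factors and are common BMP targets, Id3 and Id4 were called higher. Id3 had 13696, 7497 and 7820 normalized counts in Col6a1+ CAFs and 3419, 2211 and 2630 in Col6a1- CAFs (log2 fold change 1.78, standard error 0.33, limma adjusted p = 0.0129). Id4 had 256, 82 and 99 against 17, 33 and 33 (log2 fold change 2.23, standard error 0.55, adjusted p = 0.0462). Neither gene overlapped between the groups, and Col6a1+ replicate 1 was the highest library for both. Id2 had 1028, 1480 and 1442 against 775, 636 and 926, without overlap (log2 fold change 0.75, adjusted p = 0.197). Id1 had 1535, 1163 and 1219 against 1234, 956 and 999, where the groups overlapped (log2 fold change 0.29, adjusted p = 0.631).

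Of the 6 proteases that process ligands or antagonists, 5 were tested and Bmp1 was called. Bmp1 is a metalloprotease that cleaves procollagens and chordin and is no BMP ligand despite its name. It had 505, 430 and 682 normalized counts in Col6a1+ CAFs and 197, 233 and 137 in Col6a1- CAFs, without overlap (log2 fold change 1.51, standard error 0.33, limma adjusted p = 0.0274). The proprotein convertase Furin had 222, 335 and 262 against 255, 327 and 369, with overlap between the groups.

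Of the 11 secreted antagonists, 10 were tested and Nbl1 was called higher in Col6a1+ CAFs. Nbl1 (DAN), a secreted BMP antagonist, had 830, 1668 and 2358 normalized counts in Col6a1+ CAFs and 291, 330 and 218 in Col6a1- CAFs, without overlap (log2 fold change 2.42, standard error 0.39, limma adjusted p = 0.00656). Grem1, an antagonist made around the crypt base, had 89, 208 and 186 against 440, 311 and 225, lower in every Col6a1+ library, but its log2 fold change of -1.05 did not pass (adjusted p = 0.222). Chrdl2 had 0, 12 and 0 against 109, 74 and 19 (log2 fold change -4.54, adjusted p = 0.0602), and was called lower with the mean filter (adjusted p = 0.0495), with the block and that filter (0.0277), with limma-voom (0.0186) and with equal library totals. Bmper, a secreted modulator of BMPs, had 99, 65 and 75 against 42, 12 and 5, higher in every Col6a1+ library, but its log2 fold change of 2.41 did not pass (adjusted p = 0.0986), except with the block and the mean filter (0.0437) among the fits of all 6 libraries. Over the antagonists, 6 log2 fold changes were positive and 4 negative.

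**Figure D3:**
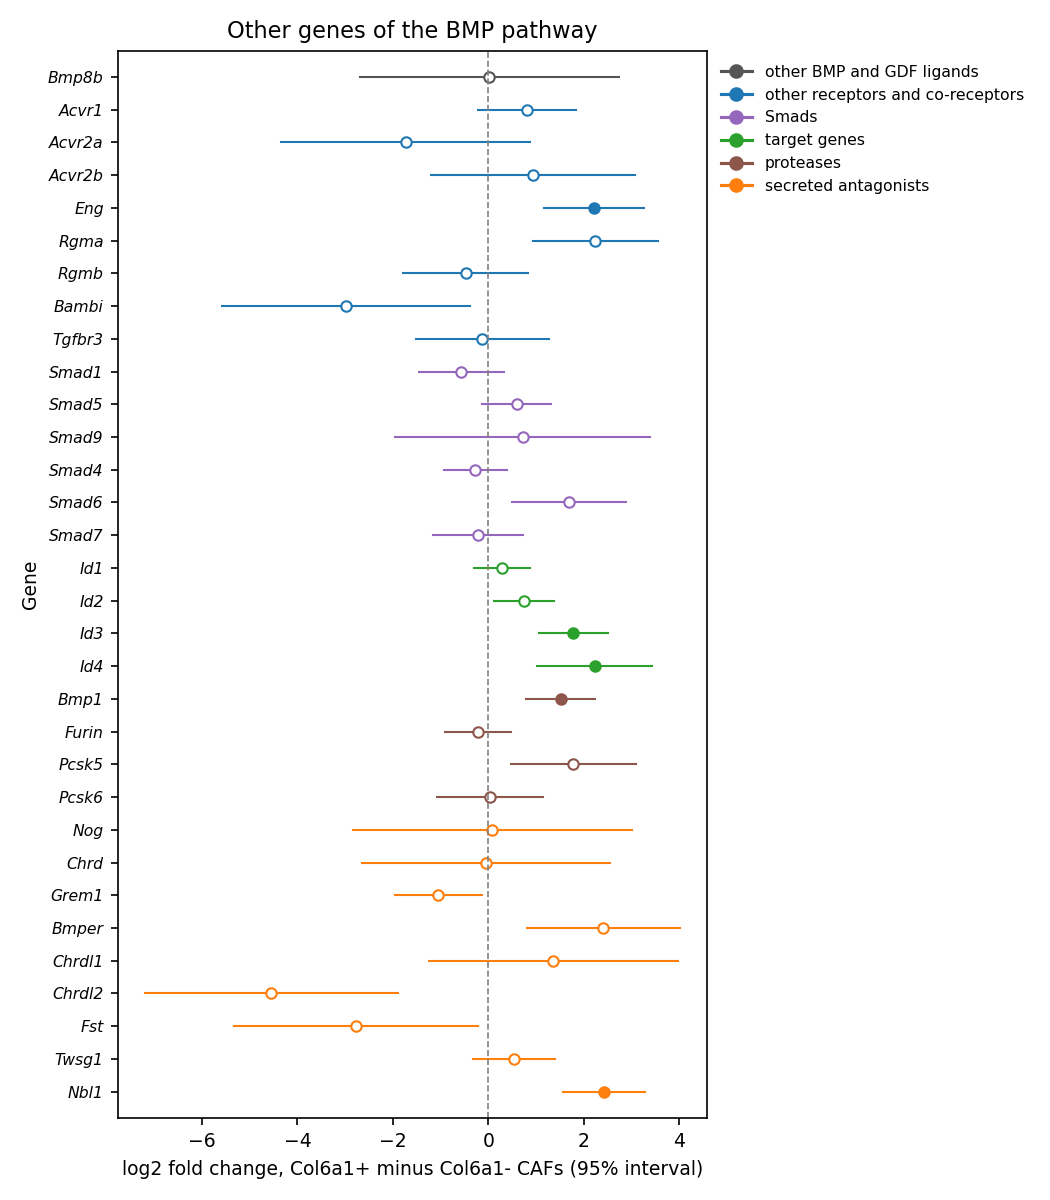
Log2 fold change, Col6a1+ minus Col6a1- CAFs on the authors' scaling, of 32 other tested BMP pathway genes, colored by role, with 95% intervals from limma and filled circles for an adjusted p under 0.05. Filled circles mark Eng, Id3, Id4, Bmp1 and Nbl1, all to the right of 0, with Nbl1 farthest at 2.42. Bmp8a, Gdf5, Gdf6, Hfe2, Tll1 and Sostdc1 are left out because at least 1 group had no library above 3 counts.

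The sorted groups differed in markers of several cell types, some higher and some lower in Col6a1+ CAFs. All 7 pericyte markers were called higher in Col6a1+ CAFs, with summed levels of 41437 to 90948 normalized counts against 1147 to 2141. Of 5 smooth muscle markers, 4 were called higher (11964 to 24392 against 452 to 2159), and of 6 telocyte markers, which mark the Pdgfra-high fibroblasts under the epithelium, 3 were (3244 to 5129 against 1181 to 1287). Of 5 trophocyte markers, Cd34 and Cd81 were called lower (244 to 496 against 1101 to 1211). The Col6a1+ libraries thus held markers of both perivascular cells and fibroblasts, and the part of each cell type in the BMP levels was not tested. All marker calls given here and in the next paragraph, 26 genes, were lost with the replicate block over all genes (adjusted p between 0.0612 and 0.153). That fit called 0 genes of the whole table. The marker calls held with the block over genes averaging at least 10 counts (0.000524 to 0.0224).

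Of 8 epithelial markers, 6 were called lower in Col6a1+ CAFs, with sums of 4948 to 5336 normalized counts against 18155 to 27801 in Col6a1- CAFs, although the sort gated out EpCAM+ cells. Epcam itself had 1074, 884 and 615 normalized counts against 3107, 4129 and 3730. The 6 pan-fibroblast genes summed to 37468 to 41177 in Col6a1+ CAFs and 6799 to 13785 in Col6a1- CAFs, and 4 of them were called higher. In Col6a1+ and Col6a1- CAFs, the sums were 120 to 342 and 124 to 315 for 6 endothelial markers. They were 14 to 38 and 56 to 118 for 6 immune markers. For 3 erythroid markers they were 68 to 946 and 149 to 312, and for 4 glial markers 50 to 73 and 19 to 52. The endothelial markers did not move together. Tie1 was called higher, with 220, 56 and 152 normalized counts in Col6a1+ CAFs against 1, 7 and 21, and the other 5 had negative log2 fold changes that did not pass. Of these, Cdh5 was lower in every Col6a1+ library (10, 4 and 9 against 39, 24 and 24, limma adjusted p = 0.252), and Pecam1 had 0, 21 and 27 against 13, 64 and 44. Emcn had 0, 13 and 63 against 10, 22 and 15, so its mean count was higher in Col6a1+ CAFs despite the negative log2 fold change. Pecam1, Vwf and Emcn each had 0 in Col6a1+ replicate 1, the library with the fewest genes with a count (14530). The part of endothelial RNA in the levels of Acvrl1 and Eng was not tested. The part of epithelial RNA in the difference between the groups was not tested.

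**Figure D4:**
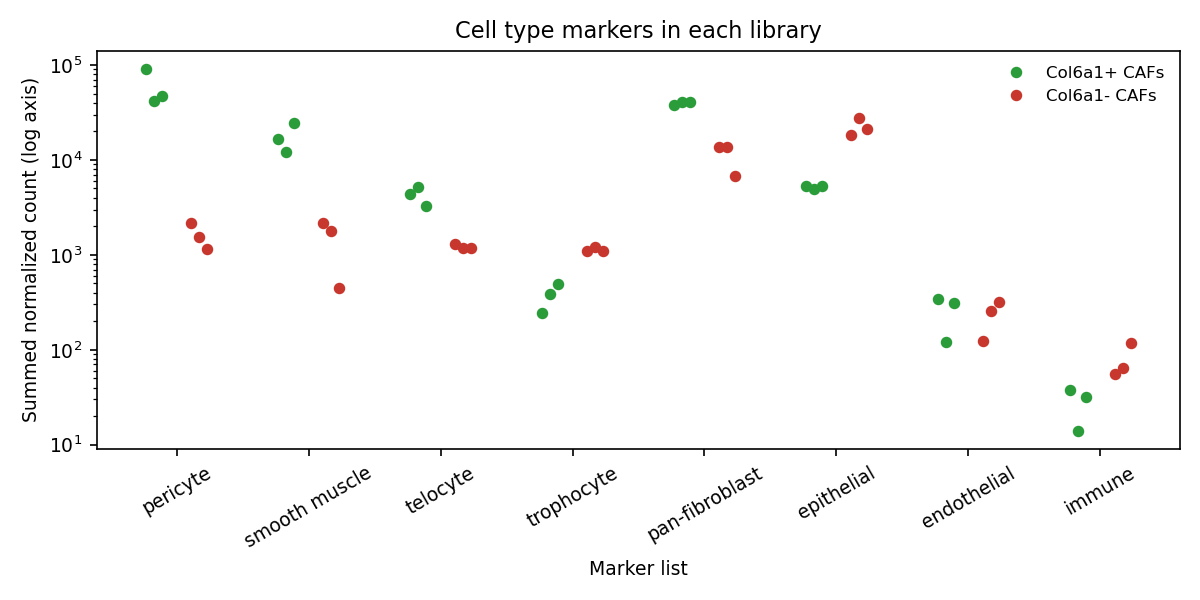
Summed normalized counts (log axis) of 8 marker lists in each library, with Col6a1+ CAFs in green and Col6a1- CAFs in red. On the authors' scaling, pericyte markers lie between 41437 and 90948 in Col6a1+ CAFs and at 2141 or less in Col6a1- CAFs, epithelial markers are higher in every Col6a1- library, and endothelial markers overlap.

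The genes were also set against the mean log2 level of the 6 pan-fibroblast genes of the same library, which was 1.67 higher in Col6a1+ CAFs. On this reference, chosen after seeing the data and described without a test, the difference was 1.94 for Bmp3, the only one of the 9 genes above the filter that stayed higher in every Col6a1+ library. The differences were near 0 for Bmp4 (-0.04) and Bmp5 (-0.12) and were -0.24 for Bmp6, -0.34 for Bmpr2 and -0.41 for Acvrl1, all with overlap between the groups. Bmp2 (-0.85) and Bmpr1a (-0.90) also overlapped, whereas Bmp7 (-1.20) was lower in every Col6a1+ library. Among the targets, the difference was 0.10 for Id3 and 0.55 for Id4, with overlap, and -1.38 for Id1 and -0.92 for Id2, without. The same 1.67 was taken from each gene, so every log2 fold change below it had to turn negative. The sign of 8 of these 9 BMP genes thus depended on the reference, through a single shift and not as separate results. The 6 reference genes were themselves higher in Col6a1+ CAFs, with 4 of them called. Pdgfra, a reference gene, is also in the telocyte list. Bmp5 and Bmpr2, called higher on the authors' scaling, were not higher relative to the pan-fibroblast genes.

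**Figure D5:**
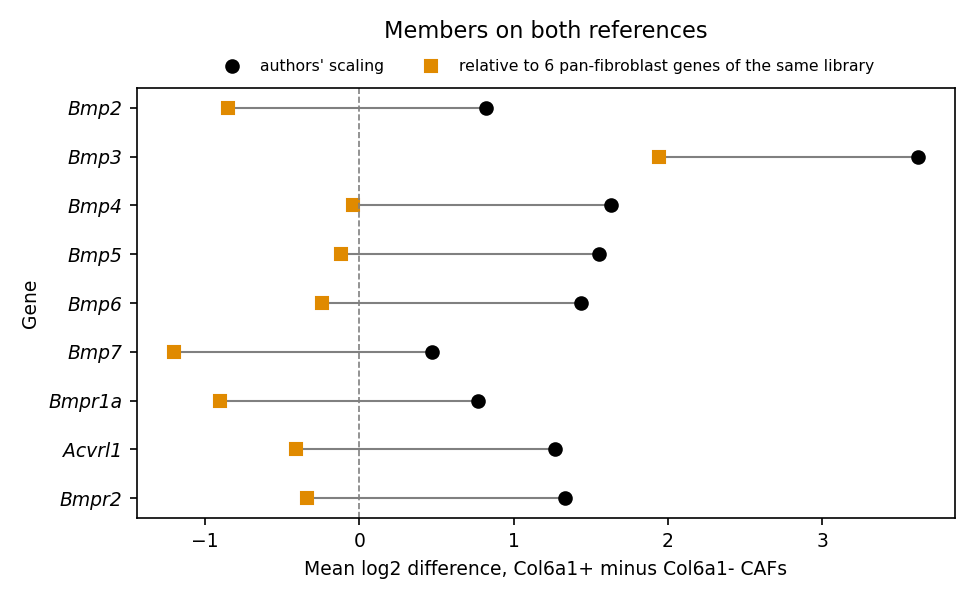
Mean log2 difference, Col6a1+ minus Col6a1- CAFs, of the 9 genes averaging at least 10 counts, on the authors' scaling (circles) and relative to 6 pan-fibroblast genes of the same library (squares). Bmp3 stays above 0 on both, at 3.62 and 1.94, while the squares of the other 8 genes lie below 0, from -0.04 for Bmp4 to -1.20 for Bmp7.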

How the data were processed

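RNA from 6 sorted CAF libraries was sequenced at its 3′ ends (QuantSeq). The authors mapped the reads to mm10 with TopHat2, mapped the remaining reads with Bowtie2, counted them per gene with GenomicRanges and normalized the counts with DESeq through metaseqR. The authors deposited the log2 of the normalized count plus 1 for 49548 genes, with whole normalized counts. Their fold changes and p-values and a further 6 columns of per-sample values were not used. The labels gave each library's group and replicate number.

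The log2 values were fitted as deposited with limma 3.58.1 in R 4.3.3 (functions lmFit and eBayes, trend on, with 6.48 prior and 4 residual degrees of freedom) for the 26402 genes that had a normalized count in any of the 6 libraries, with Benjamini-Hochberg adjusted p-values. The p-values measure the spread between libraries of pooled tumors. Depth in reads is not known, since the values carry the authors' scaling. A level of 0 allows up to 3 counts, which covers counting error only.

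The genes and all lists were chosen with earlier results of these data known. All 10 ligands and receptors are named, as are the genes called in 6 pathway lists and, for each called ligand or receptor, the 3 genes with the nearest profile. Pathway genes that were not called were named for their role or for values near the threshold. Of those not described, Pcsk5 and Hfe2 were higher and Fst lower in every Col6a1+ library, and none of these was called in limma. An item of the pathway lists is not reported here.

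The fit reported was unpaired, and the replicate number was used as a block only in alternatives. Deviations from the group means over 13515 genes correlated at 0.245, 0.125 and 0.144 for same-numbered libraries 1, 2 and 3 and at -0.245 to 0.150 for the others. Col6a1+ replicate 2 with Col6a1- replicate 3 gave the 0.150, above same-numbered libraries 2 and 3, so these correlations do not settle the pairing. The paper's total of 3 pooled samples allows both groups to share tumor pools, which the unpaired fit does not take into account. The labels do not say which libraries share a pool. Blocked values are given beside the calls they change, in groups where there are many. The alternatives were equal library totals, a mean of at least 10 normalized counts, no filter, a pseudocount of 0.1, the replicate number as a block, limma-voom, each library left out, and unadjusted p-values. The block and the left-out libraries with a mean of at least 10, and the pan-fibroblast reference, were added after seeing the data. Upstream sequences are from RefSeq (GRCm38.p6). Plots were drawn with Matplotlib 3.10.9. A marker with more than 1 entry in the table was taken by its entry with the higher mean.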

Additional observations from a re-analysis of the deposited data

How the results depend on the processing

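The sign of all 10 log2 fold changes was kept under each refit, and Bmp2, Bmp6, Bmp7, Bmpr1a and Bmpr1b stayed on their side of the threshold. With no filter, 0 ligands and receptors (6 at an unadjusted p), 21 higher and 7 lower genes and 0 higher pathway genes (10 unadjusted) passed in limma, and Bmp3 (3.62), Bmp5 (1.56) and Bmpr2 (1.33) kept their log2 fold changes but did not pass. With the replicate block, 0 ligands and receptors (8 at an unadjusted p), 0 genes higher (1851 unadjusted), 0 lower (2567 unadjusted) and 0 pathway genes higher (11 unadjusted) passed in limma, with the same log2 fold changes of 3.62, 1.56 and 1.33. With the block and a mean of at least 10, chosen after seeing the data, 4 ligands and receptors, with Bmp4 (1.63) added, and 871 lower genes passed. Limma-voom called Bmp4 (1.59) and 1006 lower genes, and a pseudocount of 0.1 gave 336 lower genes and lost Bmp5 (1.56). By unadjusted p-values and fold, 6 ligands and receptors, 1607 higher and 2273 lower genes, and 10 higher and 5 lower pathway genes passed. Pathway genes called lower numbered 1 with equal totals, 1 with a mean of at least 10, 1 with that filter and the block, and 2 with limma-voom, against 0 in the fit reported.

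Relative to the pan-fibroblast genes, chosen after seeing the data and without a test, Bmp3 was at 1.94, and 8 values changed sign: Bmp2 (-0.85), Bmp4 (-0.04), Bmp5 (-0.12), Bmp6 (-0.24), Bmp7 (-1.20), Bmpr1a (-0.90), Acvrl1 (-0.41) and Bmpr2 (-0.34). These changes follow from taking the same 1.67 from each gene.

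With 1 library left out, 0 ligands and receptors, 0 to 98 higher and 0 to 166 lower genes, and 0 higher (8 to 13 unadjusted) and 0 to 1 lower pathway genes passed in limma. Over genes with a mean of at least 10 these were 0 to 4, 366 to 1078, 154 to 1119, 1 to 7 and 0 to 1. Log2 fold changes ranged from 3.25 to 3.94 for Bmp3, 1.08 to 1.98 for Bmp4, 1.21 to 1.74 for Bmp5, 0.81 to 1.61 for Acvrl1 and 1.15 to 1.46 for Bmpr2. Acvrl1 passed without Col6a1+ replicate 1 (adjusted p = 0.0426) and Bmp4 without Col6a1- replicate 1 (0.0481), both over genes with a mean of at least 10. The cause of these changes was not tested. Bmpr1b was at or below 3 counts in each library, too few for a fold.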
